A study of Mus musculus with 9 samples.

Results

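Chromatin accessibility was compared between mouse embryonic fibroblasts (MEFs) before reprogramming (D0) and cells 3 days post OSKM induction (D3), by ATAC-Seq. OSKM stands for Oct4 (gene Pou5f1), Sox2, Klf4 and c-Myc. Of the 9 libraries of the series, these 2 were used to form the classes. The cells of both libraries came from embryos that carry an IRES-EGFP reporter behind the stop codon of Pou5f1. D0 cells were grown in MEF medium (high-glucose DMEM with fetal bovine serum) and received no factors. D3 cells were infected with pMXs retroviruses for Sox2, Klf4, Oct4 and c-Myc in the presence of polybrene, and were then kept in feeder-free medium with Knockout Serum Replacement, LIF, ascorbic acid, bFGF, CHIR99021 and N-2. Neither population was sorted, so D3 cells hold infected and uninfected cells in unknown shares. Each time-point had 1 library, so the factors, the medium, the time in culture and the library itself cannot be told apart, no test between D0 and D3 was possible, and all differences are descriptions of these 2 libraries.

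Called peaks on chromosomes 1 to 19 were merged within each library, which gave 80012 regions at D0 and 104965 at D3. Regions of both libraries that shared at least 1 bp formed 1 common locus. A region found only at D3 was called gained and a region found only at D0 was called lost. Together there were 133070 loci, of which 48246 (36.3%) were common, 55926 (42.0%) gained and 28898 (21.7%) lost. Gained and lost mean called or not called in 1 library and carry no test. The level of a locus is its highest pileup (extended tags over a summit) per 1000000 total tags, written RPM below.

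In ATAC-Seq, the transposase Tn5 inserts adapters where DNA is not covered by nucleosomes, so the tags pile up over active promoters, enhancers and insulators. Fibroblast enhancers are largely opened by AP-1, Tead and Runx factors. Of the introduced factors, Klf4 binds GC-rich sites at many promoters, Sox2 and Oct4 bind short motifs alone or as a composite, and c-Myc binds E-boxes at promoters that are already open. Early reprogramming is known for a fast loss of the fibroblast programme, a rise in proliferation and the start of a mesenchymal-to-epithelial transition, while most pluripotency genes open late.

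The libraries were of like depth, with 31714845 tags at D0 and 30233396 at D3, and the lowest called pileup was 11 tags (0.347 RPM) at D0 and 10 tags (0.331 RPM) at D3. At like depth, 1.31 times as many regions were called at D3 as at D0, and the median region level was 0.562 RPM against 0.536 at D0. The other 7 libraries, used only to see whether a locus was called again, were Thy-1- cells of day 6 (D6T-) and day 9 (D9T-), SSEA-1+ cells of day 12 (D12S+) and day 16 (D16S+), iPSCs, and day 6 cells treated with siRNA against H3.3 (D6 siH3.3) or labelled siNT (D6 siNT). The labels give both siRNA libraries as Thy-1- while the study's methods give no sorting for them, so whether they match D6T- in sorting is not settled. They held 35811 to 129532 regions, from 13213117 to 26580724 tags. Mitochondrial summits were still in the files (27 in each of D0 and D3), with mean pileups of 9044 and 9258 tags. The labelled cell type was checked against promoters of marker genes. Of 8 fibroblast markers, 6 (among them Col1a1, Pdgfra and Twist1) had a promoter region in both libraries at 0.410 to 0.914 RPM at D0, and Col3a1 and Prrx1 had one at D3 only. Of markers of pluripotent cells, Nanog, Zfp42 and Dppa5a had no promoter region at D0 or D3, Tdh had one at D3 only at the lowest callable level (0.331 RPM), and Esrrb had one in both (0.568 and 0.496 RPM). Of other cell types a culture from embryos could hold, promoters were called in both libraries for 2 of 9 haematopoietic genes (Cd68 and Laptm5), 5 of 8 endothelial genes, 3 of 7 neural genes and 0 of 6 muscle genes, beside 58.8% of all protein-coding genes. The endothelial share (62.5%) is near that background.

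To show what the loci look like, 200 bp of the mm9 genome (plus strand) around the highest summit are given for the strongest loci of each class that hold one of the motifs shown or another one searched in this window. Loci whose window overlaps an exon of any gene were passed over, and the lost locus near Mc4r is not shown. Capitals mark motifs on either strand: AP-1 TGANTCA, TEAD GGAATG, Runx TGTGGTT, Klf GGGTGTG or GGGCGTG, Sox ACAATGG. The first pair, chr6:47707840-47708039 and chr6:47689904-47690103, is the top of the gained class, lies 15388 and 33324 bp from the TSS of AC166252.1, and belongs to a repeated array described below. Every 51-base stretch sampled there occurs more than once in mm9.
Gained, summit at 36.9 RPM: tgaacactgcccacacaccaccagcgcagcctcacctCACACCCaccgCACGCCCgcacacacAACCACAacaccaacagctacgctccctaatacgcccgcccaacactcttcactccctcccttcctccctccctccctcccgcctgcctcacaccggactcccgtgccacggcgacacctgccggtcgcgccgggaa
Gained, summit at 27 RPM: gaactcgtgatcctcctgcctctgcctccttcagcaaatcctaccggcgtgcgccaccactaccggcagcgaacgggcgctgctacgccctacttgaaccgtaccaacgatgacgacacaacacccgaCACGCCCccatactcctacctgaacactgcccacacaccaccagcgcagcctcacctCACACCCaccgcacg
The next 3 show gained loci in sequence that occurs once: chr1:196756256-196756455, intergenic and 8659 bp from the TSS of Cd34, chr11:35337427-35337626 in an intron of Slit3, and chr9:10229819-10230018 in an intron of Cntn5. They were chosen after their values were seen, as the strongest under the same rule called again in at least 4 of the other 7 libraries.
Gained near Cd34: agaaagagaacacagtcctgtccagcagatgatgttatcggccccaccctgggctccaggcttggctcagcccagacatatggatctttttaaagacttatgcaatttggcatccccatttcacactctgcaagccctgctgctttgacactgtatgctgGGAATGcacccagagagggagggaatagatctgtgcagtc
Gained in Slit3: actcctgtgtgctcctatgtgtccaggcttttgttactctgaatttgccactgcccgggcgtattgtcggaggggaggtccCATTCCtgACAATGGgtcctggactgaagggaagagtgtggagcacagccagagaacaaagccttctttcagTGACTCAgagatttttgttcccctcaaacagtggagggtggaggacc
Gained in Cntn5: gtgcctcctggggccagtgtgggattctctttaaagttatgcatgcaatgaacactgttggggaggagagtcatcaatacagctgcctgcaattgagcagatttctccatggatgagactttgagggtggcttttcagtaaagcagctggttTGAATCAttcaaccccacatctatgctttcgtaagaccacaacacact
The lost class is shown by chr11:18490617-18490816, intergenic and 12235 bp from the TSS of Gm12024, chr7:114863249-114863448 in an intron of Ppfibp2, and chr8:14477174-14477373 in an intron of Dlgap2, which carry a TEAD or an AP-1 motif.
Lost near Gm12024: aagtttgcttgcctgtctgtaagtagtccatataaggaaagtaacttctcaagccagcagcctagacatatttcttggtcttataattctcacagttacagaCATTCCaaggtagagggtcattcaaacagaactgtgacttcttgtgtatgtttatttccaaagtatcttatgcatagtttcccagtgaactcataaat
Lost in Ppfibp2: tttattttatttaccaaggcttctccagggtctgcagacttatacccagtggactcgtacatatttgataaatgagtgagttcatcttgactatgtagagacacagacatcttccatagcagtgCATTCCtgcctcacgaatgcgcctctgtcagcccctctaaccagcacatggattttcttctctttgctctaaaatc
Lost in Dlgap2: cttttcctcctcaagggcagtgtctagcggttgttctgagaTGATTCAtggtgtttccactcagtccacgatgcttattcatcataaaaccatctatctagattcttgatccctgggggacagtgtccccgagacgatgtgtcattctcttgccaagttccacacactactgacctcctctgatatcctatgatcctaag
The common loci with the lowest D3 level relative to D0 are shown by chr9:106837426-106837625 in an intron of Dock3 and chr8:69282043-69282242, intergenic and 60822 bp from the TSS of Npy1r. The last, chr9:64693406-64693605 in an intron of Dennd4a, has the highest ratio of the common single-copy loci of at least 2 RPM under the same rule, and was also chosen after its values were seen.
Lower at D3, in Dock3: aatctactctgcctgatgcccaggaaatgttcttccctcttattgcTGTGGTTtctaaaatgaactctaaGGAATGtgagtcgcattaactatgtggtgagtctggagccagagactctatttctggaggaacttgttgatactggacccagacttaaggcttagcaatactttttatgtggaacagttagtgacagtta
Lower at D3, near Npy1r: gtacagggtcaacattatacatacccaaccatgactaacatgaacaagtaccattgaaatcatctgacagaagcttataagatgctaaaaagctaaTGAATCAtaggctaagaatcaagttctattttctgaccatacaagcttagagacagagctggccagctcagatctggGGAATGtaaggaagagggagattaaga
Higher at D3, in Dennd4a: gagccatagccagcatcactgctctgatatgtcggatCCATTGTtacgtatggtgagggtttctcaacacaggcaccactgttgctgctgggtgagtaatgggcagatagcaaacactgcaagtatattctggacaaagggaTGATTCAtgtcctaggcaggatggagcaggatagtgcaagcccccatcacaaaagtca

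The strongest gained loci lay in repeated sequence, and they are set apart before the results. A locus was called recurrent when at least 50% of the 51-base stretches sampled from it occur more than once in the genome. Recurrent sequence made up 4248 (7.60%) of gained loci, 894 (1.85%) of common loci and 392 (1.36%) of lost loci. Among the 193 gained loci above 2 RPM, 121 (62.7%) were recurrent. Gained recurrent loci formed 53 runs of at least 10 loci with gaps of at most 100 kb, which together held 1469 loci.

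The strongest run, chr6:47604152-47727430 on mm9, held 48 gained loci over 123 kb and no protein-coding gene. Its highest level was 36.9 RPM at D3, 45.2 at D6T-, 39.0 at D12S+ and 41.9 at D16S+, and no region was called there at D0, D9T-, in iPSCs or in either siRNA library. The run at chr4:88404280-88452186, over predicted genes such as Gm13288, reached 17.3 RPM at D3 against 0.851 at D0. The run at chr8:71945375-72097274 reached 8.93 RPM at D3 against 0.883 at D0, and the run at chr17:15099304-15190121, which spans Phf10 and Tcte3, reached 7.87 RPM with no region at D0. In 40 of the 53 runs, D3, D6T-, D12S+ and D16S+ were all higher than D0, D9T-, iPSCs, D6 siH3.3 and D6 siNT. The runs were formed from loci called at D3 and not at D0, which largely fixes the places of these 2 libraries. The other 7 libraries fell into the same 2 sets at most runs, and the sets do not follow the order of days. What the 4 libraries share was not tested.

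**Figure D1:**
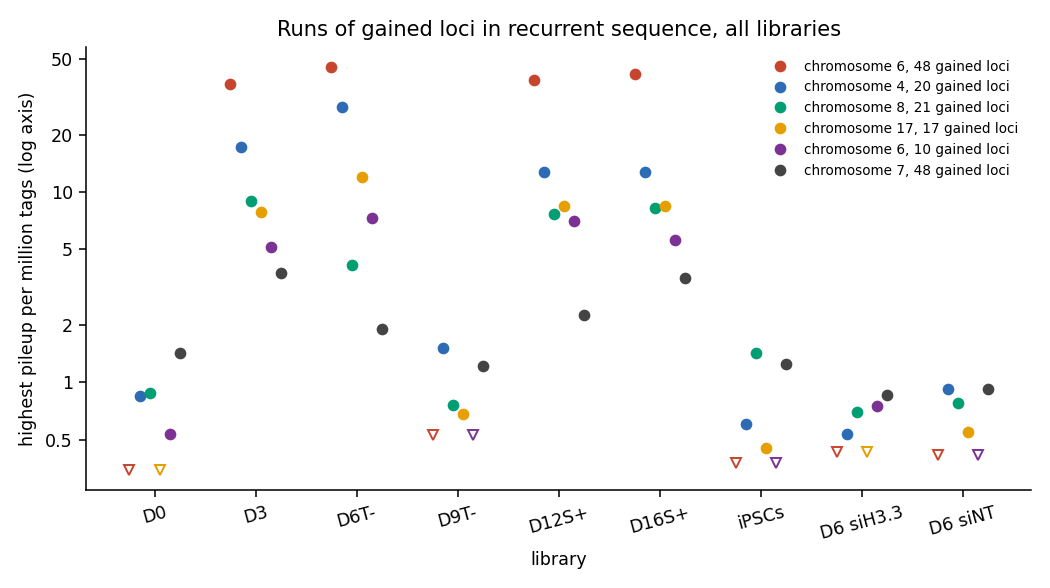
Highest level in RPM (log axis) in each of the 9 libraries over the 6 strongest runs of gained loci in recurrent sequence. Filled points are called levels and open triangles mark no called region, drawn at the lowest level called in that library. In the 5 strongest runs, D3, D6T-, D12S+ and D16S+ lie at or above 4.16 RPM and the other 5 libraries at or below 1.51.

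Exonic loci of Sox2, Klf4 and Myc, 3 of the 4 introduced genes, were among the highest gained levels or common ratios, and the ratio at Pou5f1 was not. At Sox2, a gained locus inside the exon reached 375 tags (12.4 RPM). At Klf4, a common locus over exons had 20 tags at D0 and 471 at D3, 24.7-fold higher RPM (95% counting interval 15.8 to 40.8), and a gained exonic locus had 241 tags. At Myc, an exonic common locus had 23 tags at D0 and 253 at D3, 11.5-fold higher (7.52 to 18.5), and a gained exonic locus had 246 tags. At Pou5f1, the exonic locus had 416 tags at D0 and 747 at D3 (1.88-fold, 1.67 to 2.13), less than the median of 2.66-fold over promoters of the highest levels. Its D0 level was already 13.1 RPM, against 0.631 at the Klf4 locus and 0.725 at the Myc locus, and it reached 24.7 RPM at D3. The ratios of the factor genes thus start from unlike levels, and a low ratio does not show that Pou5f1 lacked added exonic tags. A Pou5f1 locus upstream that overlaps no exon had 217 and 236 tags (1.14-fold, 0.945 to 1.38). A locus near AC084287.1, which shares sequence with the factor genes, had 53 tags at D0 and 374 at D3 (7.40-fold). Tags of the provirus and of the endogenous exons cannot be told apart in these files, so these loci are given here and left out of the single-copy set.

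Another group of loci held human-like repeat sequence. Runs of at least 4 CATTC units, the unit of a human satellite, lay at the summit window of 29 D3 regions, all gained and up to 10.9 RPM, and of 0 D0 regions. They were in 5 regions at D6T-, 3 at D6 siH3.3, 1 at D6 siNT and 0 of the other libraries. Of the 12 strongest gained loci that were neither recurrent nor part of the factor genes, 3 held such runs and 10 were 364 to 375 bp wide. GGATTACAG, a short stretch shared with the primate Alu repeat, lay in 5 of the 12. Of all 69 such loci above 2 RPM, 8 held CATTC runs and 6 the Alu stretch. Over all regions the Alu stretch was as common at D0 (0.232%) as at D3 (0.227%), and it lay in 0.410% of windows 2 kb beside the summits. The retroviruses were made in human cells, and the part of their DNA in these tags was not tested. Loci that were recurrent, held CATTC runs or shared sequence with the factor genes were left out for a second count, chosen after the data were seen. It held 51646 gained, 47346 common and 28506 lost loci, called single-copy loci below.

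Most loci called in 1 library only were weak. The gained loci were 1.94 times as many as the lost ones, they reached higher levels, and they lay nearer to genes and promoters than the lost loci. Common loci were the strongest class and held the largest share of promoters. Their median level was 0.926 RPM, against 0.496 (quartiles 0.430 and 0.595) for gained and 0.473 (0.410 and 0.536) for lost loci. At up to 0.6 RPM lay 77.0% of gained and 89.2% of lost loci, close to the lowest levels that could be called. The difference between the classes was wider among strong loci. At 2 times the lowest level of the other library, 9058 gained and 2325 lost loci remained, a ratio of 3.90 (7876 and 2291 in the single-copy set). No lost locus was above 2 RPM, and the strongest reached 1.89. In bulk libraries, more cells with an open locus and more tags per cell cannot be told apart.

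When the same number of regions of highest pileup was taken from each library, 35431 loci were gained, 33125 lost and 44102 common. With the 40000 highest of each, the counts were 14698, 14003 and 25178. Equal numbers make gained and lost regions nearly equal by construction, so the excess of gained loci rests on the greater number of regions called at D3. With all regions, 63.9% of D0 regions and 46.7% of D3 regions lay in common loci.

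By position, 22.4% of common loci (95% interval 22.0 to 22.7), 16.0% of gained loci (15.7 to 16.3) and 9.44% of lost loci (9.11 to 9.78) lay in promoters, taken as 3 kb upstream of a TSS. Genebodies held 44.5, 51.7 and 50.2%, and intergenic DNA held 33.1, 32.3 and 40.4%. Within 1 kb of a TSS lay 27.6% of common, 16.6% of gained and 6.64% of lost loci, and the median distance to a TSS was 8103, 9229 and 15180 bp. Gained loci were thus intermediate between common and lost loci close to the TSS. The promoter share of lost loci was lower at higher levels, with 10.3% at up to 0.4 RPM and 2.34% (0.800 to 6.66) at 1 to 2 RPM. That of gained loci was 16.5% at up to 0.4 RPM and 19.6% (18 to 21.4) at 1 to 2 RPM. The excess of promoters among gained loci was hence present at every level at which both classes had loci, and it was 6.88 percentage points in the single-copy set against 6.54 in all loci.

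**Figure D2:**
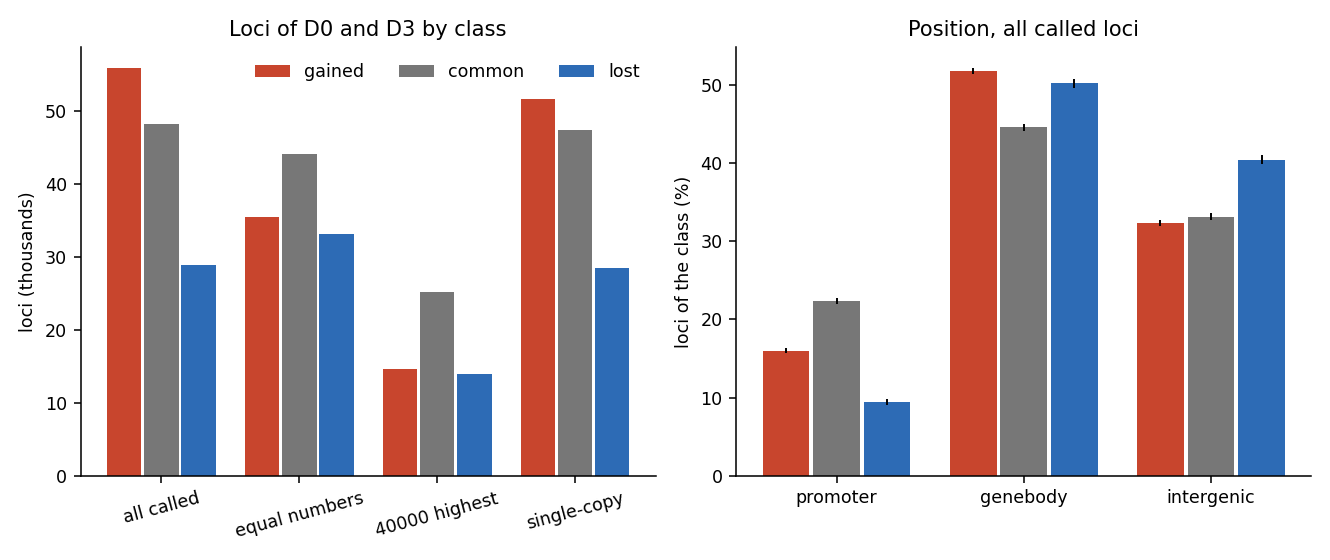
Left, numbers of gained, common and lost loci with all called regions, equal numbers of regions, the 40000 highest regions and single-copy loci. Right, percent of each class in promoters, genebodies and intergenic DNA, with 95% Wilson intervals as bars, where lost loci have the lowest promoter share (9.44%) and the highest intergenic share (40.4%).

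At common loci, levels were mostly higher at D3, and most so at strong promoters. The median log2 ratio of D3 over D0 was 0.39 (95% interval 0.39 to 0.41, quartiles -0.05 and 0.95), a 1.31-fold higher level. At least 2-fold higher at D3 were 11226 loci (23.3%) and at least 2-fold lower were 497 (1.03%). Relative to the median of all common loci, 10.9% were at least 2-fold above and 5.25% at least 2-fold below. The median log2 ratio was 0.92 in promoters, 0.35 in genebodies and 0.22 in intergenic DNA, and 46.0, 20.6 and 11.6% of these loci were at least 2-fold higher. The order of the 3 positions was the same in the upper 8 of 10 bins of level. In the highest bin, from 1.67 RPM as the geometric mean of both libraries, the medians were 1.41 for promoters, 1.24 for genebodies and 0.79 for intergenic loci. In the lowest bin all 3 were between -0.04 and -0.03. Small ratios at low levels are fixed by the rule, since a weak locus must pass the threshold in both libraries.

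**Figure D3:**
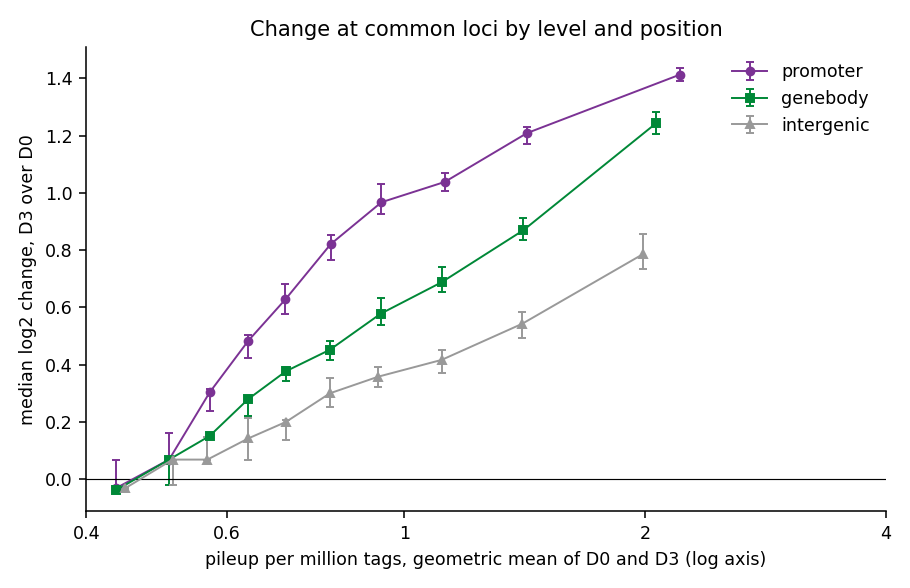
Median log2 ratio of D3 over D0 at common loci in 10 bins of level, for promoters, genebodies and intergenic loci, against the median geometric mean of D0 and D3 in RPM (log axis), with 95% order-statistic intervals as bars. The 3 curves start together near 0 and separate, with promoters reaching 1.41 and intergenic loci 0.79 in the highest bin.

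In the highest of the 10 bins, which weigh both libraries alike, 69.6% of 4831 loci were at least 2-fold higher at D3 and 0.0207% at least 2-fold lower. Of 7292 common loci with at least 2 RPM in the higher library, from which loci are named below, 5723 were at least 2-fold higher at D3 and 6 at least 2-fold lower. The latter count is a description only, since a locus could enter through its level at D3 alone. The median over all common loci was 0.40 in the single-copy set and 0.48 with equal numbers of regions. The files do not give the share of all tags that lay in peaks, so the scale of these ratios rests on the total tags alone.

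Loci were wider at D3. Gained loci had a median width of 276 bp (275 to 277), lost loci 255 bp (254 to 257) and common loci, which join regions of both libraries, 501 bp. At like levels the gained loci were also the wider ones, with 288 against 267 bp at 0.5 to 0.6 RPM and 461 against 414 bp at 1 to 2 RPM. In the 45141 common loci made of 1 region of each library, the median width was 373 bp at D0 and 422 bp at D3, and 66.0% were wider at D3. The ratio of widths followed the level, with a median of 1.55 where the level was at least 2-fold higher and 1.01 where it was within 0.25 of equal on the log2 scale.

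Base composition differed between the classes. Lost loci had the lowest GC content and CpG ratio, gained loci the highest GC content and common loci the highest CpG ratio. The median GC content of 200 bp around the summit was 52.5% in common, 54.0% in gained and 48.5% in lost loci, and the CpG observed over expected ratio was 0.276, 0.228 and 0.153. The log2 ratio of common loci was higher with higher GC content in and outside promoters. Outside promoters its median was -0.12 below 40% GC, 0.12 at 40 to 50%, 0.30 at 50 to 60%, 0.87 at 60 to 70% and 1.28 at 70% or more. In promoters the same bins gave -0.08, 0.22, 0.58, 1.17 and 1.30. At the same GC content, promoters and other loci therefore had closer medians than over all loci. The part of base composition in the ratios was not tested.

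Motifs known from fibroblast enhancers were most frequent in common loci, and the Klf and Sox motifs in gained loci. The AP-1 motif TGANTCA lay in 33.0% of common loci, 17.2% of gained loci and 20.1% of lost loci, against 23.5% of all loci, 3.94% of 67112 windows at annotated TSSs and 5.63% of windows 2 kb beside the summits. The TEAD motif GGAATG lay in 18.2, 13.1 and 16.7% of common, gained and lost loci (all loci 15.7%, TSS windows 8.18%). The Runx motif TGTGGTT lay in 6.85, 5.27 and 6.26% (all loci 6.06%, TSS windows 3.00%). These 3 motifs were thus most frequent in common loci and least frequent in gained loci. The Klf motifs GGGTGTG and GGGCGTG showed another order, with 11.7% of common, 13.0% of gained and 6.66% of lost loci (all loci 11.1%, TSS windows 11%). The Sox motif ACAATGG lay in 2.39, 3.57 and 2.53% (all loci 2.92%, TSS windows 1.83%). The ETS motif CCGGAAG, a promoter motif, lay in 4.51, 1.81 and 0.772% (all loci 2.56%, TSS windows 8.34%). The octamer ATGCAAAT of Oct factors differed little between the classes, with 0.999, 1.02 and 0.934% (all loci 0.996%, TSS windows 0.712%). The Oct-Sox composite was found at 8 gained, 2 common and 1 lost locus. The E-box CACGTG lay in 4.62, 4.05 and 3.38% (all loci 4.11%, TSS windows 4.93%), and the CTCF motif in 3.36, 1.71 and 1.63% (all loci 2.29%, TSS windows 0.326%). Motifs were searched on both strands and may overlap each other, and a match is a run of letters and not a bound site.

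Among common loci outside promoters, the motif content followed the ratio of D3 over D0. The AP-1 motif lay in 50.8% of the 445 loci at least 2-fold lower at D3 and in 13.0% of the 307 loci at least 4-fold higher. TEAD motifs went from 28.1 to 9.12% and Runx motifs from 10.3 to 2.61% over the same bins. Klf motifs went the other way, from 5.39 to 19.9%, and ETS motifs from 0.225 to 13.0%. The median GC content of these loci went from 44.5 to 64.5%, and AP-1, TEAD and Runx motifs are AT-rich beside the Klf and ETS motifs.

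**Figure D4:**
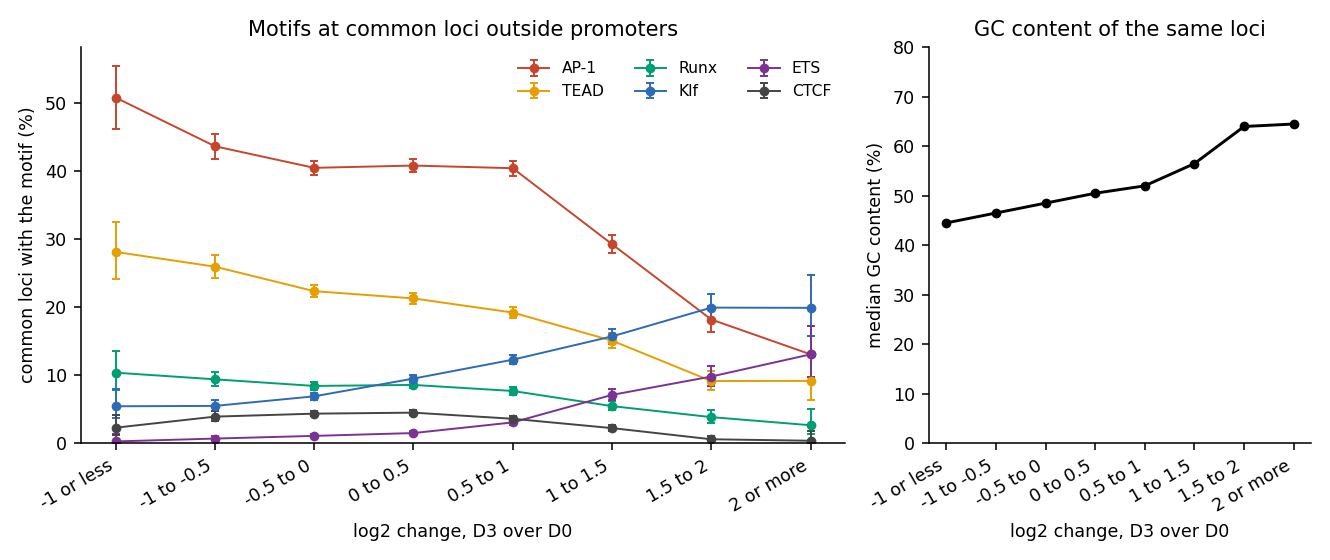
Left, percent of common loci outside promoters that hold each motif, in 8 bins of the log2 ratio of D3 over D0, with 95% Wilson intervals as bars. Right, median GC content of the same loci, which goes from 44.5 to 64.5% as the AP-1 share goes from 50.8 to 13.0%.

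Within GC bins below 60%, the lower AP-1 share of gained loci turned round. Outside promoters the motif lay in 32.5% of gained (31.7 to 33.3) and 25.3% of lost loci (24.5 to 26.1) at 40 to 50% GC, and in 14.3 and 11.2% at 50 to 60% GC. At 60 to 70% GC the share was again lower in gained loci, with 3.92% (3.49 to 4.40) against 5.48% (3.84 to 7.76), intervals that overlap. At 70% or more only 13 lost loci were found, with 7.69% against 0.954% of gained loci. The median log2 ratio of common loci with the AP-1 motif was likewise not lower at a given GC content below 60%, with 0.15 with and 0.07 without the motif at 40 to 50% GC and 0.37 and 0.27 at 50 to 60%. At 60 to 70% GC it was lower, with 0.65 with and 0.90 without. For Sox and Klf motifs, the share of gained loci stayed above that of lost loci within GC bins below 70%. The place of common loci varied. At 60 to 70% GC the Klf motifs lay in 17.8% of common loci and 15.0% of gained loci. The Sox motif lay in 9.94% of gained and 2.92% of lost loci below 40% GC, in 5.72 and 2.58% at 40 to 50%, and in 3.03 and 2.46% at 50 to 60%. The Klf motifs lay in 4.57 and 2.30%, 10.7 and 5.60%, and 13.6 and 8.51% in the same bins. CTCF loci had lower ratios than other common loci of their GC content, with -0.01 against 0.13 at 40 to 50% and 0.21 against 0.31 at 50 to 60%.

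Strong gained loci carried more of the motifs than weak ones. In the single-copy set outside promoters, the AP-1 motif lay in 31.5% of gained loci at 2 times the lowest level of D0 or more and in 17.4% of weaker ones. The Klf motifs lay in 16.5 and 12.4%, and the Sox motif in 5.61 and 3.55%. Lost loci showed the same for AP-1 (42.9 and 18.8%) and TEAD (27.9 and 16.1%), but not for Klf (4.31 and 6.76%). The strong loci of both classes were thus richer in AP-1 motifs, and only the strong gained loci were also richer in Klf and Sox motifs (Sox in 1.97% of strong and 2.57% of weak lost loci). Median GC content was 50.5% in strong and 53.5% in weak gained loci, and 44 and 49% in lost loci. The part of this difference in the motif shares was not tested.

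The 10 strongest gained loci were 9 loci of recurrent sequence and the exon of Sox2. Of the 9, 6 lay in the chromosome 6 run (36.9, 27, 26.0, 21.3, 12.1 and 11.3 RPM), 2 in the chromosome 4 run (17.3 RPM near Gm17476 and 12.3 in an exon of Gm13288) and 1 near Fcgr3 (12.0 RPM), which encodes a receptor for the constant part of antibodies. The tenth had 11.3 and the next locus 11.1 RPM. Because the rule picked no single-copy locus, the 10 strongest single-copy gained loci called again in at least 4 other libraries are added, chosen after their values were seen. They reached 2.38 to 3.90 RPM. In the highest of them, at Ppm1h, 46.7% of the sampled stretches occur more than once, just under the limit for recurrent loci.

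An intronic locus of Slit3, which encodes a secreted guidance ligand of Robo receptors, was not called at D0, had 79 tags (2.61 RPM) at D3, and was called in all 7 other libraries, with 7.25 RPM at D6T- and 0.677 in iPSCs. A locus near Cd34, a surface sialomucin of progenitor cells, had 2.61 RPM at D3, 4.49 at D6T-, 2.57 at D9T- and 1.14 at D12S+, and was not called at D16S+ or in iPSCs. Both were highest at D6T- and lower in later libraries. Median region levels also differed between libraries, with 0.562 RPM at D3, 0.841 at D6T-, 0.803 to 0.984 from D9T- to D16S+ and 0.602 in iPSCs. The named levels are not adjusted for this. The promoter of Stam2, which encodes an endosomal sorting adaptor, was called in all 7 others at 1.09 to 3.97 RPM, beside 2.38 at D3. A locus in Cntn5, which encodes a neural adhesion molecule, had 2.45 RPM at D3 and 3.65 at D6T- and was not called at D9T-, D16S+ or in iPSCs.

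The 10 strongest lost loci lay far from promoters, 5 in introns and 5 between genes, at 5942 to 206921 bp from the nearest TSS, and none was recurrent. The strongest, near Gm12024, had 60 tags (1.89 RPM) at D0. The next lay near Mc4r, a melanocortin receptor gene of the brain, with 52 tags (1.64 RPM). Introns of Exoc4, a subunit of the exocyst, Ppfibp2, a liprin, and Dlgap2, a synaptic scaffold, held loci of 50, 49 and 48 tags. An intron of Ntrk2, the receptor of BDNF, held 43 tags and an intron of Esr1, the oestrogen receptor, 42 tags. None of these was called at D3, where the lowest called pileup was 10 tags. Of the 10, 4 were called in none of the other 7 libraries and 6 were called at D6T- only, at 0.421 to 0.935 RPM. Loci not called at D3 were thus partly called again 3 days later at lower levels. The tenth had 1.32 and the next locus 1.29 RPM.

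Among common loci of at least 2 RPM, the 10 highest ratios were 2 factor genes (Klf4 and Myc), 7 recurrent loci and a locus near mmu-mir-2134-1. The last had 14 tags at D0 and 170 at D3, 12.7-fold higher (7.39 to 23.8). It falls under the limit for recurrent loci, but 40% of its sampled stretches occur more than once. The recurrent loci, of which that in Fcgr3 had the highest ratio, were 8.24-fold to 18.5-fold higher. Among single-copy loci, ranked after their values were seen, 9 of the 10 highest ratios lay within 150 bp of a TSS. Cenpc1, a centromere protein gene, had 31 tags at D0 and 188 at D3, 6.36-fold higher (4.33 to 9.63). The promoter of Fzd1, a Wnt receptor gene, had 17 and 103 tags, 6.36-fold higher (3.78 to 11.3). The promoter of Dennd1a, which encodes a regulator of Rab35, had 11 and 78 tags, 7.44-fold higher (3.94 to 15.5). Their levels at D0 were low, at 0.347 to 0.977 RPM.

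The 10 common loci with the lowest ratios lay in introns (7) or between genes (3), at 1618 to 60822 bp from a TSS, and 6 of them held the AP-1 motif. Over all common loci outside promoters the share was 38.4%, and 10 loci are too few to set 6 apart from it. An intronic locus of Dock3, which encodes an activator of Rac, had 64 tags at D0 and 16 at D3, 3.81-fold lower (2.18 to 7.07). A locus near Npy1r, a neuropeptide Y receptor gene, had 76 and 25 tags, 2.90-fold lower (1.82 to 4.75). An intron of Cit, the citron kinase of cytokinesis, had 74 and 32 tags, 2.20-fold lower (1.44 to 3.45), and a locus in Tnfrsf8, which encodes the receptor CD30, had 86 and 39, 2.1-fold lower (1.42 to 3.15). The tenth, in Dpp4, a cell surface peptidase gene, had 76 and 42 tags, 1.73-fold lower (1.17 to 2.58). All 10 were called at D6T-, 8 at D12S+, 4 at D9T- and none at D16S+ or in iPSCs. At Cit, Npy1r and Tnfrsf8 the D6T- level was 3.18, 2.06 and 2.06 RPM against 1.06, 0.827 and 1.29 at D3, which was higher at D6T- than at D3 in each case. The median level of all regions was also higher at D6T-, with 0.841 against 0.562 RPM at D3, and the named levels are not adjusted for this.

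By gene, from the promoter to the end of the gene, 55.8% of 21418 protein-coding genes held a gained locus and 27.8% a lost one. The greatest excess of gained over lost loci was at Gm20388 (568 gained, 235 lost) and Fgfr2 (129 and 50), whose annotated spans of 4438 and 3012 kb take in many other genes. C130026I21Rik (75 and 8) and Gm2792 (60 and 13) also ranked high, with 65 and 55 of their gained loci in recurrent sequence. Among genes with mostly single-copy loci, Zmiz1, a transcriptional coregulator gene, had 49 gained and 2 lost loci. Of the 49, 19 were called again at D6T-, a lower share than the 54.8% of all gained loci. The counts of gained and lost loci were 37 and 1 at Sept9, a septin gene, 35 and 1 at Gse1, and 33 and 1 at Trio. At 2010111I01Rik, 28 of 31 gained loci were called again at D6T-. Median levels of the gained loci in these genes were 0.430 to 0.595 RPM.

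The genes with the greatest excess of lost loci held many weak ones. Rbfox3, which encodes the neuronal splicing factor NeuN, had 115 lost and 42 gained loci, Atp2b2, a plasma membrane calcium pump gene, 88 and 17, and Cdh4, a cadherin gene, 73 and 21. Igsf21 (66 and 17), Grik3 (a kainate receptor gene, 52 and 13), Phactr3 (46 and 7), Prdm16 (62 and 25), Megf6 (42 and 7), Nfasc (42 and 7) and Cdh23 (55 and 22) made up the rest. The lost loci of these genes were weak, with medians of 0.410 to 0.473 RPM against a lowest called level of 0.347. Almost none came back, since 111 of the 115 lost loci of Rbfox3, 84 of 88 of Atp2b2 and 68 of 73 of Cdh4 were called in none of the other 7 libraries. Of all lost loci, 70.2% were called in none. Clusters of this kind were a general trait of both classes, as 27.3% of gained and 24.9% of lost loci lay in windows of 100 kb with at least 10 loci of their class.

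Promoters of listed genes were compared with those of all protein-coding genes. A promoter counts as called in both libraries when each had a region there, which need not be the same locus. At Tgfbi and Lin28a, counted as called in both, the promoter regions of D0 and D3 were different loci. Over all genes, 12601 promoters were called in both libraries, of which 60.4% were at least 2-fold higher and 0.111% at least 2-fold lower at D3, with a median log2 ratio of 1.16. A promoter was called at D3 only in 9.93% and at D0 only in 1.71% of genes. No list gave a promoter at least 2-fold lower.

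Promoters of proliferation genes were open in both libraries and higher at D3. Of 25 genes of the cell cycle and DNA replication, 24 had a promoter in both. Of the 24, 19 were at least 2-fold higher (79.2% against 60.4% of all genes). The median log2 ratio was 1.47 (interval 1.12 to 1.73), a range that holds the 1.16 of all genes. The list's promoters were also stronger at D0, with a median of 1.14 RPM against 0.851. Common promoter loci in level bins 9 and 10 had medians of 1.21 and 1.41, with 64.9 and 83.5% at least 2-fold higher. The list was thus near strong promoters in general. The promoter of Mcm6, a subunit of the replicative helicase, had 0.504 RPM at D0 and 2.45 at D3, 4.85-fold higher. That of E2f1, a regulator of S phase genes, had 1.23 and 4.99, 4.06-fold higher, that of Mcm4 was 3.82-fold higher and that of Ccne2, cyclin E2, 3.50-fold. The inhibitor genes Cdkn2a and Cdkn2b were 3.10-fold and 3.37-fold higher, so both sides of the cycle control had higher promoters. A list of 15 Myc targets was mostly of ribosome biogenesis but also held the metabolic genes Odc1 and Cad. All 15 had a promoter in both libraries, 7 were at least 2-fold higher and the median was 1.00, below that of all genes. Ncl, nucleolin, had 1.10 and 5.69 RPM, 5.16-fold higher, and Odc1, the first enzyme of polyamine synthesis, was 3.66-fold higher. Pes1 had a ratio of 0.639.

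Fibroblast promoters stayed called at D3. Of 30 fibroblast and mesenchymal genes, 27 had a promoter in both libraries and 3 (Col3a1, Prrx1 and Meox2) at D3 only. Of the 27, 10 were at least 2-fold higher and the median log2 ratio was 0.72, below the 1.16 of all genes. Cdh11, a mesenchymal cadherin, had 0.568 RPM at D0 and 1.98 at D3, 3.50-fold higher, Fn1, fibronectin, 0.662 and 2.18, 3.3-fold higher, and Col1a2 0.504 and 1.52, 3.02-fold higher. Acta2, smooth muscle actin, had a ratio of 0.749, and Thy1, the surface antigen lost by reprogramming cells, had 0.410 and 0.562 RPM. The list held 133 gained and 10 lost loci over its genes, and 27 of 30 genes held a gained locus (90.0% against 55.8% of all genes) and 7 a lost one (23.3% against 27.8%). The list's genes are longer than most, with a median span of 42.0 kb against 18.5 kb.

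The 14 genes of AP-1 and the immediate early response held 27 gained and 0 lost loci. A gained locus lay in 11 of them (78.6% against 55.8% of all genes) and a lost one in 0 (against 27.8%), and these genes are shorter than most, with a median span of 10.0 kb against 18.5 kb. Of 12 promoters called in both libraries, 7 were at least 2-fold higher (58.3% against 60.4% of all), with a median log2 ratio of 1.06 against 1.16. The promoters of the list were thus near the background. Srf, the serum response factor, was 3.43-fold higher, Atf3 had 1.70 and 4.43 RPM, 2.60-fold higher, and Egr1 and Ier2 were 2.52-fold and 2.20-fold higher. Jun, with the highest D0 level of the list at 2.62 RPM, was 1.93-fold higher.

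Epithelial and pluripotency promoters were mostly absent at D0 and weak at D3. Of 22 epithelial genes, 7 had a promoter in both libraries, 10 at D3 only (45.5% against 9.93% of all genes) and 5 in neither. The D3-only promoters included those of Cdh1, E-cadherin, at 0.463 RPM, Krt8, a keratin of simple epithelia, at 0.728, and Dsp, desmoplakin, at 0.761, beside a lowest callable level of 0.347 at D0. Crb3, a polarity gene, was the only 1 of the 7 at least 2-fold higher, with 0.977 and 3.31 RPM (3.38-fold). Of 28 pluripotency genes, Nr0b1, which is X-linked, and Tfcp2l1, which the annotation does not list under this symbol, were not analysed here. Of the other 26, 8 had a promoter in both libraries, 6 (Zfp296, Lin28b, Foxd3, Fgf4, Tdh and Fbxo15) at D3 only and 12 in neither, among them Nanog, Zfp42, Dppa2, Dppa3 and Sall4. Klf5 had 0.914 and 3.27 RPM (3.58-fold) and Dnmt3l, a cofactor of DNA methylation, was 2.59-fold higher. Klf2 and Tbx3, with the highest D0 levels of that list (2.08 and 2.30 RPM), were 1.91-fold and 1.94-fold higher. Of neural genes, Neurod1 and Neurog2 had a promoter at D3 only and Sox10 at D0 only. Tek, an endothelial receptor gene, was 2.34-fold higher, and the 6 muscle genes had no promoter region in either library.

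The other 7 libraries, which the classes did not use, held common loci most often and lost loci least often. At D6T-, the next time-point, 92.1% of common, 54.8% of gained and 26.3% of lost loci were called again. At D9T-, with the fewest regions, these shares were 44.1, 14.0 and 1.11%. At D12S+ they were 57.0, 22.5 and 3.74%, at D16S+ 39.9, 19.2 and 3.09%, and in iPSCs 40.9, 20.5 and 5.20%. In the siRNA libraries of day 6 they were 54.3, 18 and 2.46% (siH3.3) and 53.9, 18.1 and 2.14% (siNT). The order of the classes was the same in all 7 libraries, which differ in their number of regions and hence in the shares they can hold. In none of the 7 were 6.03% of common, 36.8% of gained and 70.2% of lost loci, and in at least 4 were 53.1, 18.8 and 1.72%.

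**Figure D5:**
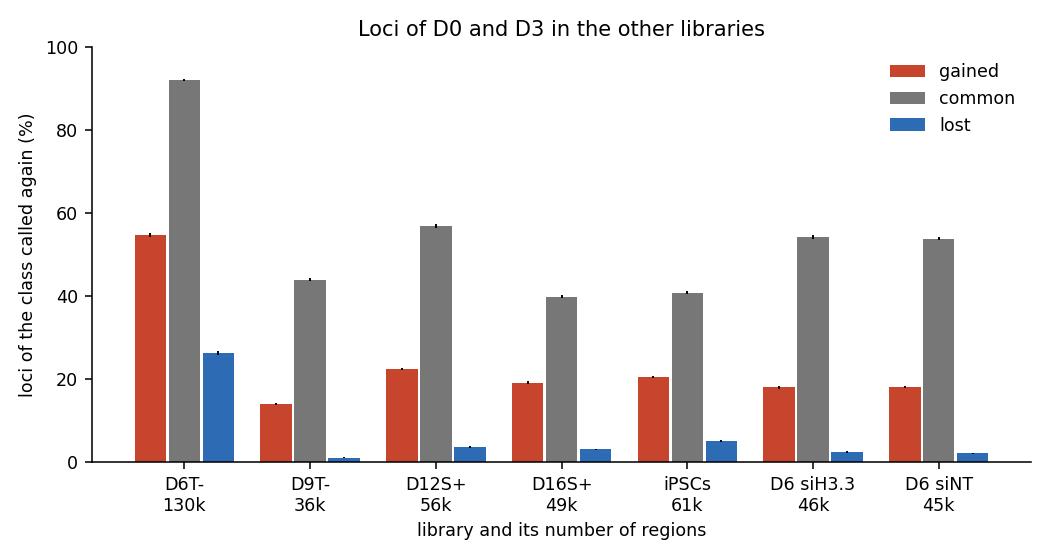
Percent of gained, common and lost loci called again in each of the other 7 libraries, with 95% Wilson intervals as bars and each library's number of regions under its name. Gained loci lie between common and lost loci in every library, with 54.8% at D6T- and 20.5% in iPSCs.

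Between loci of the same level, lost loci were called again least often in all 7 libraries, in each level bin that held them, while the order of gained and common loci varied. At 0.6 to 0.8 RPM, 93.3% of common, 84.1% of gained and 55.7% of lost loci were called at D6T-. At D9T- gained loci were called more often than common ones below 1 RPM, with 25.6 against 19.4% at 0.6 to 0.8 RPM and 41.2 against 32.1% at 0.8 to 1 RPM. At D16S+ this was so from 0.5 to 2 RPM, with 39.2 against 30.4% at 0.8 to 1 RPM, and at D12S+ from 0.6 to 1 RPM. At 1 to 2 RPM, 63.7% of common, 58.4% of gained and 3.13% of lost loci were called at D9T-. Above 2 RPM, where 62.7% of gained loci were recurrent, 22.8% of gained and 96.8% of common loci were called at D9T-, 18.7 and 84.0% in iPSCs, and 31.6 and 99.1% at D6 siNT. Lost loci of 1 to 2 RPM were called at D6T- in 78.9% and in the other libraries in 2.34 to 7.81%.

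The motif content of gained loci differed with the library that held them. In the single-copy set outside promoters, gained loci called at D6T- and not in iPSCs held the AP-1 motif in 34.6%, and those called in iPSCs in 8.31%. Their median GC content was 49 and 57%, and the part of base composition in these shares was not tested. The Sox motif lay in 2.69% of gained loci found in none of the 7 libraries, 3.53% of those in 1 to 3 and 6.89% of those in 4 to 7, and the Klf motifs in 11.1, 12.5 and 18.1%. The AP-1 motif lay in 7.66, 27.3 and 23.4% and the CTCF motif in 0.349, 2.37 and 3.91% of the same sets. Gained loci seen only at D3 were thus the poorest in all 4 motifs. Their median GC content was 55.5%, against 51% for loci in 1 to 3 and 51.5% for loci in 4 to 7 libraries. Lost loci called again at D6T- and not in iPSCs held the AP-1 motif in 47.1%, against 12.8% of those found in none, at a median GC content of 45 and 49.5%. Of the 408 lost loci in 4 to 7 libraries, 19.1% held the CTCF motif, against 0.292% of those in none.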

How the data were processed

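ATAC-Seq libraries of 50k cells were mapped by the authors to mm9 with 51 bp reads (STAR and Picard are named in the submitters' processing notes), and reads of ambiguous position and of the mitochondrial genome were removed per the methods. The deposited peaks still held mitochondrial summits and strong regions in sequence that occurs more than once. Which reads were used for peak calling is therefore not settled. Per the file headers, the authors called peaks for each library with MACS2 2.1.0.20151222 without a control or local background, at a q-value cutoff of 0.05, with tags extended to 200 bp and summits split. The deposited pileup is a signal, the count of extended tags over a summit, not scaled for depth. The deposited fold enrichment is a ratio over tags spread evenly on the genome with a pseudocount of 1. The authors gave significance as −log10 of p and q.

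Overlapping peaks of chromosomes 1 to 19 were merged, and the pileup was divided by the header's total tags (RPM, per 1000000 tags). Genes and TSSs came from an annotation of the same build with 37310 genes. GC content and motifs used 200 bp around the highest summit. Named loci were the 10 highest of each class and the 10 highest and lowest ratios among common loci of at least 2 RPM, named genes the 10 with the greatest excess of gained or of lost loci, and list members those with the largest ratios. Members, lists and rules were chosen with earlier results of these data known. Intervals are 95% Wilson (shares), order-statistic (medians) and exact Clopper-Pearson (ratios of tags); they cover counting error only, and tags without molecular identifiers are not independent molecules. Alternatives were equal numbers of regions, a common floor, other overlap rules, scalings, promoters and motif windows, and, added after seeing the data, single-copy loci and GC bins. Sequences were read with pysam 0.24.0, tables with pandas 2.3.3 and numpy 2.4.6, intervals came from scipy 1.17.1 and plots from matplotlib 3.10.9, all under Python 3.11.15. The functions recovered 19 of 19 planted answers in simulated data. A few genes that met the rules for naming are not reported here.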

Additional observations from a re-analysis of the deposited data

Results flagged for a closer look

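The sex chromosomes, which the comparison of chromosomes 1 to 19 did not use, also held more regions at D3. On chromosome X there were 969 regions at D0 and 1965 at D3, a ratio of 2.03 against 1.31 on chromosomes 1 to 19, with 1261 gained, 241 lost and 687 common loci. The median log2 ratio of common loci on X was 0.75 (95% interval 0.65 to 0.86) against 0.39 on chromosomes 1 to 19. On chromosome Y there were 2 regions at D0 and 9 at D3. X held 1.2% of regions at D0, 1.84% at D3 and 1.30 to 2.87% in the other 7 libraries.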

How the results depend on the processing

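No paired analysis was possible because each time-point had 1 library. Without replicates, depth limits the calls: a locus just above 10 or 11 tags can be called in 1 library only by counting error, and most gained and lost loci lie there.

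With equal numbers of regions, gained loci numbered 35431, the median log2 ratio was 0.48, 25.5% and 0.619% of common loci were at least 2-fold higher and lower, the promoter share of gained less lost loci was 5.83 points (main value 6.54), the AP-1, Klf and Sox differences were -0.0641, 6.84 and 1.49 points (main -2.89, 6.33 and 1.05), median widths were 305 and 259 bp, and 67.8% of gained and 30.3% of lost loci were called at D6T-. With the 40000 highest regions there were 14698 gained, 14003 lost and 25178 common loci, and the same values were 0.67, 33.0%, 0.139%, 10.8 points, -11.09, 8.89 and 1.79 points, 420 and 333 bp, 93.4% and 72.4%, with 6243 genes holding a gained locus. The common floor gave 0.912% lower, 279 bp and 56.2%. Fold enrichment in place of pileup gave 0.37, 21.6% and 0.877%, centring 0, 10.9% and 5.25%, subtracted background 0.47, 28.1% and 2.28%, and loci of 1 region of each library 0.37 and 21.7%. The promoter difference was 6.02 points with 1 kb promoters and 5.72 with protein-coding genes only. The AP-1, Klf and Sox differences were -1.77, 3.98 and 0.626 points in windows of 100 bp and -3.47, 7.73 and 1.33 in 400 bp. The AP-1 difference was -2.19 outside promoters and -2.13 at single-copy loci, where 56.9% of gained loci were called at D6T-. Outside promoters it reversed to 7.17 at 40 to 50% GC and 3.17 at 50 to 60% GC, where Klf gave 5.13 and 5.13 and Sox 3.14 and 0.572. Promoters alone gave 6146 genes with a gained and 1757 with a lost locus. A value was called the same when it lay within the counting error of the main value or, for counts, within a set ratio of it. Of the values of the main results under all alternatives, 48 were the same, 58 moved and 2 reversed. Of the 137 values of gene lists and named loci, 119 were the same, 18 moved and 0 reversed.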
